A study of Mus musculus with 137 samples.

Results

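Villus RNA of mice that drank the lowest 2 concentrations of hexavalent chromium for 90 days (day 91 of the study) was compared with villus RNA of time-matched control mice. The exposed group pooled the 5 libraries at 0.1 ppm Cr(VI) (mice 81 to 85) with the 5 at 1.4 ppm (mice 161 to 165), and the control group held the 4 villus libraries at 0 ppm (mice 3, 5, 6, and 7), which makes 14 libraries, from 14 of the 71 mice of the series. The pooled exposed libraries are called the low dose group, and every probe of the assay entered the comparison. All mice were wildtype B6C3F1 females, chromium was given as sodium dichromate dihydrate in drinking water that was freely available, and control mice received tap water. A villus library is the scrape of a fixed duodenal section of 1 mouse from which a pathologist had dissected the crypts, so each library is 1 animal and holds every cell type that the villi contain. Expression was measured with TempO-Seq, in which a pair of detector oligonucleotides is ligated on the target transcript, amplified, and counted as 1 probe. The age of the mice was not given in the sources used here.

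Villi are the finger-like projections of the small intestine that absorb nutrients, and most of their cells are enterocytes that stopped dividing when they left the crypt. Crypts hold the stem cells and the Paneth cells, which secrete alpha-defensins and other antimicrobial proteins. Hexavalent chromium that escapes reduction in the stomach enters the villus epithelium first, where it is reduced to Cr(III), a step known to generate reactive intermediates and to engage antioxidant defence through NRF2. The comparison asks which villus transcripts differ from control at the lowest concentrations tested.

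The libraries carried the markers that their label calls for, and they differed in depth. Enterocyte markers summed to 66470 to 91610 CPM (a probe's count relative to the effective library size) in control villi and to 71340 to 145300 CPM in low dose villi, against 27620 to 53480 CPM in control crypts. The 15 crypt base markers summed to 785.8 to 3855 CPM in control villi, 494.5 to 1766 CPM in low dose villi, and 8443 to 20520 CPM in control crypts, so that crypt transcripts were present in every villus library and most abundant in that of control mouse 7. Total counts ran from 1667014 to 2678299 in the controls and from 2723703 to 4216064 in the low dose group, and all 10 low dose libraries lay above all 4 controls (mean difference 1122000 counts, two-sided exact permutation p = 0.002997, with 0.000999 the smallest the design allows). A mean of 14220 ± 1223 probes (SD, n = 4) was detected in the controls and 15720 ± 1163 (SD, n = 10) in the low dose group (two-sided exact permutation p = 0.05694), and 14180 and 15560 after thinning every library to 1667014 counts (exact permutation p = 0.06094). Pancreatic acinar transcripts set single libraries apart. Without Reg1, which the duodenum also expresses, 20 acinar markers took 6.596% of the counts of control mouse 7 and 0.006224% to 0.7768% in the other controls, 15.79% in 0.1 ppm mouse 84 and 0.3698% to 3.721% in the others at 0.1 ppm, and 0.00156% to 0.3228% at 1.4 ppm. Values without mouse 7 or mouse 84 are given below beside the gene lists and calls that moved most when these mice were left out.

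**Figure D1:**
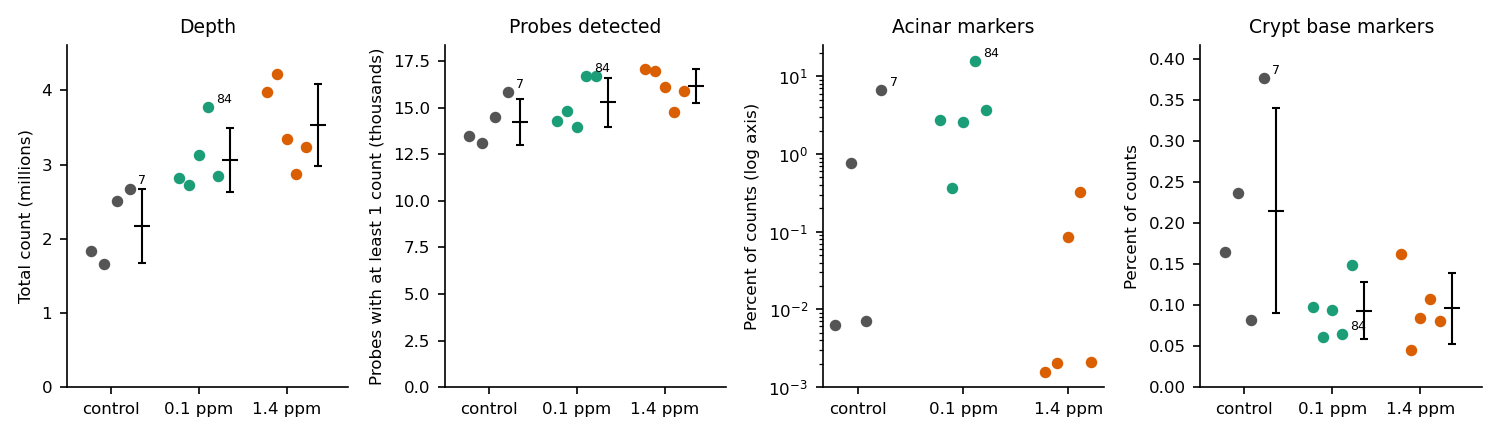
Total count, probes with at least 1 count, percent of counts in pancreatic acinar markers without Reg1 (log axis), and percent of counts in crypt base markers, for each villus library of the control, 0.1 ppm, and 1.4 ppm groups. Points are libraries, the black mark with bars beside a group is its mean ± SD (not drawn on the log axis), and mice 7 and 84 are labelled. All 10 exposed libraries are deeper than the 4 controls, and mice 7 and 84 hold the highest acinar share of their groups.

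Few villus transcripts passed the test. Of 26365 probes (19020 genes) that passed the count filter, 39 probes of 39 genes differed at an adjusted p under 0.1 (edgeR quasi-likelihood test, Benjamini-Hochberg over all probes tested), a share of 0.148%. In the low dose group 22 rose (0.0834% of the probes tested) and 17 fell (0.0645%). An unadjusted p under 0.05 was reached by 2679 probes, or 10.2%, of which 1351 were higher and 1328 lower, and the median log2 fold change of all probes was 0.0714. No called probe averaged more than 339.7 CPM in the low dose group or controls, and 5 stayed under a mean of 10 CPM in both. Scaling with DESeq2 size factors left the number near (57) but turned its balance to 13 higher and 44 lower, and leaving out single libraries gave from 15 (without 0.1 ppm mouse 82) to 82 probes (without control mouse 7, 62 of them higher). The legacy quasi-likelihood fit called 1018 probes and DESeq2 547, and a fit of the 14 libraries alone gave 3. The spread behind the p values was estimated within the groups of all libraries of the series, and not from these 14 mice alone.

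Control and low dose libraries did not overlap for 10 of the 39 called probes, 7 of them higher and 3 lower in the low dose group. Among all probes tested, 54 were higher in every low dose library than in every control (0.205%) and 20 were lower (0.0759%). These 10 genes serve mitochondrial shape, vesicle traffic, NF-kB signaling, chromatin, RNA processing, and cell adhesion, and each is described with the position of its gene in GRCm38 (GENCODE M21). Probe positions within the genes were not used here. The remaining 29 called genes, whose groups overlap, are described after them and were chosen for naming after their values were seen, other than Ghrl, Psma1, Igkv4-63, and Mmp7, which the rule for gene lists names.

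Mtfr1, a regulator of mitochondrial fission (chromosome 3, 19187327 to 19220817), gave the smallest p of all. Its probe measured 42.9, 69.6, 67.1, and 67.3 CPM in control mice 3, 5, 6, and 7, and a lowest, median, and highest value of 92.7, 148, and 185 CPM in the low dose group. The means were 61.7 ± 12.6 and 147 ± 23.4 CPM (SD, n = 4 and 10), a log2 fold change of 1.25 ± 0.23 (SE; adjusted p = 0.00605). Mtfr1 was also the only probe that passed in all 14 fits that each left out 1 of these libraries. It passed in all 30 alternative fits of single probes, which include those 14 (log2 fold change 1.09 to 1.34, adjusted p up to 0.0888). The fit with probes summed per gene is not among the 30. Against control, 0.1 ppm gave 1.21 and 1.4 ppm gave 1.28 on the log2 scale, contrasts that share the same 4 controls. These values are those of 1 probe, and no other Mtfr1 probe passed. A second averaged 28.7 CPM in controls and 42.4 CPM in the low dose group (log2 fold change 0.52 ± 0.37, unadjusted p = 0.158). Another averaged 10.4 and 9.16 CPM (-0.19 ± 0.55, unadjusted p = 0.726). The remaining Mtfr1 probes averaged 0 CPM in controls and 0.248 and 1.21 CPM in the low dose group.

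Transcripts of membrane traffic went both ways. Ap3m2, a medium subunit of the AP-3 adaptor complex that sorts cargo toward lysosomes (chromosome 8, 22787354 to 22805622), was present in all 4 controls at 23.9, 11.1, 4.60, and 17.2 CPM, and had 0 counts in 8 of 10 low dose libraries, with at most 3.93 CPM in the others. Its log2 fold change was -4.21 ± 0.87 (adjusted p = 0.024), and the call was lost without control mouse 3. Arfgef1, an exchange factor that activates ARF GTPases at the Golgi (chromosome 1, 10137571 to 10232670), moved the other way, from 79.3, 109, 126, and 115 CPM in the controls to between 153 and 238 CPM, median 177. The mean rose from 107 ± 20.1 to 189.5 ± 29.6 CPM, a log2 fold change of 0.82 ± 0.19 (adjusted p = 0.0681), and the call was lost without control mouse 3 or 5.

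Ikbkg, also called NEMO, is the regulatory subunit of the kinase complex that activates NF-kB (chromosome X, 74393290 to 74453854). Its called probe had 0 counts in control mice 3 and 5 and 2.68 and 5.74 CPM in mice 6 and 7, and ran from 6.22 to 35.9 CPM in the low dose group with a median of 21.6. The log2 fold change was 3.06 ± 0.68 (adjusted p = 0.0548). A second, more abundant Ikbkg probe also did not overlap between groups, with 38.7 CPM on average in controls and 81.4 in the low dose group (log2 fold change 1.04 ± 0.30, unadjusted p = 0.00066, adjusted p = 0.163), which did not pass the test. The other probes of Ikbkg had log2 fold changes of 0.43 and 0.05 (unadjusted p = 0.107 and 0.932). Of genes that act beside it, Birc3, a ubiquitin ligase of the same pathway, rose from 16.0, 0, 19.5, and 4.21 CPM to between 19.3 and 58.0 CPM, median 36.5 (log2 fold change 1.92 ± 0.45, adjusted p = 0.0681), overlapping the controls in 1 library. The other 3 Birc3 probes had log2 fold changes of -0.32, -0.36, and -1.05.

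Smarcc1 is a core subunit of the SWI/SNF chromatin remodelling complex (chromosome 9, 110117708 to 110240178). The probe gave 2.49, 7.91, 13.4, and 3.83 CPM in controls and between 15.2 and 44.1 CPM, median 24.7, in the low dose group, a log2 fold change of 1.90 ± 0.44 (adjusted p = 0.0681). The call was lost without control mouse 3, 5, or 7 or without 0.1 ppm mouse 84, and the 4 other Smarcc1 probes lay between 0.02 and 0.73. Tut1, a terminal uridylyltransferase that acts on U6 small nuclear RNA, and Rom1, a membrane protein known from photoreceptor discs, both lie on chromosome 19 (8953847 to 8966210 and 8927391 to 8929356). They are 24490 bases apart, and genes between them were not looked at here. Tut1 measured 0, 0, 6.13, and 4.21 CPM in controls and 8.72 to 30.8 CPM, median 15.8, in the low dose group (log2 fold change 2.47 ± 0.62, adjusted p = 0.0846). Rom1 measured 10.5, 8.44, 0, and 10.3 CPM in controls and 10.5 to 66.1 CPM, median 29.1 (log2 fold change 2.16 ± 0.49, adjusted p = 0.0602). The highest control and the lowest exposed library differed for Rom1 by less than 0.1 CPM. Each of these genes passed in some leave-one-out fits only, Tut1 in 5 and Rom1 in 11 of 14.

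Tes, which encodes testin, a LIM domain protein of focal adhesions (chromosome 6, 17065149 to 17105828), was the most abundant called transcript. Controls measured 211, 163, 204, and 192 CPM, and the low dose group ran from 250.0 to 419 CPM with a median of 340.2. The log2 fold change was 0.82 ± 0.21 (adjusted p = 0.0954), in 3 of 14 leave-one-out fits the call was kept, and a second Tes probe gave 0.28 ± 0.24 (unadjusted p = 0.239). Asph, an aspartate beta-hydroxylase of the endoplasmic reticulum (chromosome 4, 9448069 to 9669344), fell from 37.9, 32.7, 47.1, and 29.1 CPM to between 0 and 21.5 CPM, median 13.0 (log2 fold change -1.52 ± 0.36, adjusted p = 0.0681). Armc6, an armadillo repeat protein (chromosome 8, 70220172 to 70234466), fell from 24.4, 23.7, 36.8, and 47.8 CPM to between 5.19 and 20.8 CPM, median 12.9 (log2 fold change -1.36 ± 0.34, adjusted p = 0.0826). In each of the 10 genes the changes at 0.1 ppm and at 1.4 ppm, against the shared controls, had the same sign. This follows from the choice of genes whose groups do not overlap, and is no separate result.

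**Figure D2:**
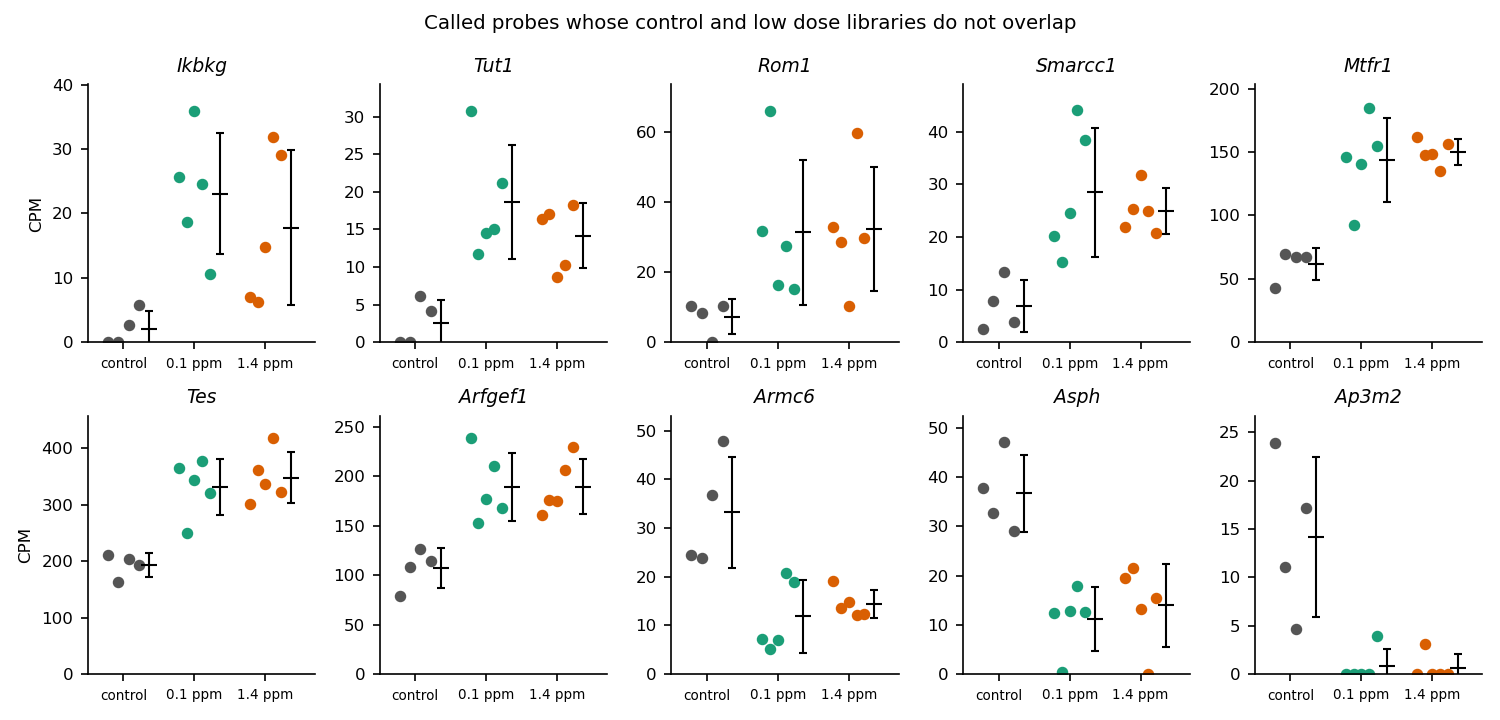
CPM of the 10 called probes whose control and low dose libraries do not overlap, by group, each panel with its own axis from 0. Points are libraries (4, 5, and 5) and the black mark with bars is the mean ± SD of the group. Ikbkg, Tut1, Rom1, Smarcc1, Mtfr1, Tes, and Arfgef1 are higher and Armc6, Asph, and Ap3m2 lower at both concentrations than in any control.

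Among the called genes whose groups overlap, Ghrl and Mmp7 fell. Ghrl, which encodes ghrelin, an appetite hormone of enteroendocrine cells, measured 74.3, 112, 45.2, and 181 CPM in controls and 15.03 to 51.8 CPM, median 32.8, in the low dose group (log2 fold change -1.62 ± 0.38, adjusted p = 0.0681). Low dose libraries lay under every control in 8 of 10 mice, a second Ghrl probe averaged 16.4 and 5.44 CPM (log2 fold change -1.68 ± 0.54, unadjusted p = 0.00203, adjusted p = 0.22), and the call was lost without control mouse 5, control mouse 7, or 1.4 ppm mouse 163. Of the 12 enteroendocrine markers tested Ghrl alone was called, and the summed level of all was 535.3 to 585.0 CPM in controls and 349.2 to 717.2 CPM in the low dose group. Mmp7, the protease that activates alpha-defensins in Paneth cells, fell from 30.9, 116, 27.2, and 204 CPM to between 0.259 and 44.5 CPM, median 22.9 (log2 fold change -1.97 ± 0.49, adjusted p = 0.083), and lost its call without control mouse 5 or 7 and in 5 other leave-one-out fits. In bulk villus RNA, fewer cells of a type and less RNA per cell cannot be told apart.

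Transcripts of dividing cells were among the called genes, and they rested on few controls. Cdc20, which activates the anaphase-promoting complex, had 27.9 CPM in control mouse 7, 0 counts in the other 3 controls, and 0 counts in 9 of 10 low dose libraries (log2 fold change -5.28 ± 1.10, adjusted p = 0.024), and the call was lost without mouse 7. Top2a, a DNA topoisomerase of replicating cells, measured 6.98, 22.7, 7.66, and 35.6 CPM in controls and 0 to 11.01 CPM, median 1.53, in the low dose group (log2 fold change -2.52 ± 0.59, adjusted p = 0.0681). The other probes of these genes gave log2 fold changes of -0.78 for Cdc20 (unadjusted p = 0.156) and -0.66 for Top2a (unadjusted p = 0.147). The replication-linked histone transcripts Hist1h2af (log2 fold change -2.60) and Hist2h3c2 (log2 fold change -2.39), and Fignl1, an ATPase of homologous recombination (log2 fold change -3.11), fell too, and Hist1h2af was at 0 in control mice 3 and 5. Histone probes may share reads with near-identical copies, so that their values are uncertain.

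The remaining genes that rose had varied roles. Psma1, a subunit of the 20S proteasome, measured 7.98, 3.17, 24.1, and 25.3 CPM in controls and 3.98 to 98.0 CPM, median 54.8, in the low dose group (log2 fold change 1.77 ± 0.42, adjusted p = 0.0681). Clpx, the unfoldase of a mitochondrial protease (log2 fold change 0.90), Dnajb9, a chaperone of the endoplasmic reticulum (log2 fold change 4.13, at 0 counts in 3 of 4 controls), Vps26a, a retromer subunit (log2 fold change 1.01), Exoc5, an exocyst subunit (log2 fold change 1.18), Tor1a, an ATPase of the endoplasmic reticulum (log2 fold change 1.23), Gspt1, a translation release factor (log2 fold change 1.56), Abhd17b, a depalmitoylase (log2 fold change 0.95), B4galt3, a galactosyltransferase (log2 fold change 1.45), Tyw1, a transfer RNA modifying enzyme (log2 fold change 1.5), Lama5, a laminin chain of the basement membrane (log2 fold change 1.95), and Wdr44 (log2 fold change 1.35) also rose. Tyw1 had 17.5, 8.44, 71.3, and 48.6 CPM in controls and 58.1 to 151 CPM in the low dose group, so that 9 of 10 exposed libraries lay above every control. Mss51 and Atxn7l1 had 0 counts in all 4 controls and averaged 7.27 and 8.68 CPM in the low dose group, at least 4.59-fold and 5.48-fold higher when the controls are set at a floor of 3 counts per library, a bound that reflects counting error alone, since reads are PCR copies. The other Atxn7l1 probes were lower in the low dose group, at 18.4 and 13.6 CPM and at 4.56 and 3.05 CPM (log2 fold change -0.47 and -0.54). The second Gspt1 probe was lower too, at 49.9 and 41.8 CPM (log2 fold change -0.26). Other tested probes of Clpx, Dnajb9, Exoc5, Tor1a, B4galt3, and Tyw1 had positive log2 fold changes.

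The remaining called genes fell and were scarce. Rhox2d, a reproductive homeobox gene, had 0 counts in all 10 low dose libraries and in control mice 6 and 7, with 17.9 and 5.28 CPM in control mice 3 and 5, at least 4.74-fold lower on the same floor. Igkv4-63, an immunoglobulin kappa variable segment, had 81.8 CPM in control mouse 5 and 0 counts in the other controls, and the call was lost without that mouse or without 0.1 ppm mouse 82. Variable segments are near-identical copies whose probes may share reads. Mb21d1, which encodes the DNA sensor cGAS (log2 fold change -2.73), Mmachc, an enzyme of cobalamin processing (log2 fold change -2.57), Invs, a protein of primary cilia (log2 fold change -3.28), Dhx57, a helicase (log2 fold change -3.43), and Gm45337, a gene without a known role (log2 fold change -5.21), completed the list. Invs was at 0 counts in control mice 5 and 7 and Gm45337 in control mouse 6.

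Other probes of the called genes give a second reading of the same transcripts in the same libraries. Another tested probe existed for 18 of the 39 genes, 30 probes in all, of which 21 had the sign of the called probe, 3 of these had an unadjusted p under 0.05 (Ikbkg, Ghrl, and Exoc5), and 0 passed the adjusted test. The second Exoc5 probe gave a log2 fold change of 1.36 ± 0.58 (unadjusted p = 0.0214), against 1.18 ± 0.29 for the called probe. Probes of Mtfr1, Birc3, Asph, Gspt1, Atxn7l1, and Fignl1 had the opposite sign. The second Asph probe gave a log2 fold change of 0.31 ± 0.73. The second Fignl1 probe averaged 0.191 CPM in controls and 3.54 CPM in the low dose group (unadjusted p = 0.0159), with controls at or under the floor. For 8 of the 39 genes the called probe was not the most abundant probe of its gene. Probes of a gene can target different transcript isoforms, and their part in these differences was not tested.

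**Figure D3:**
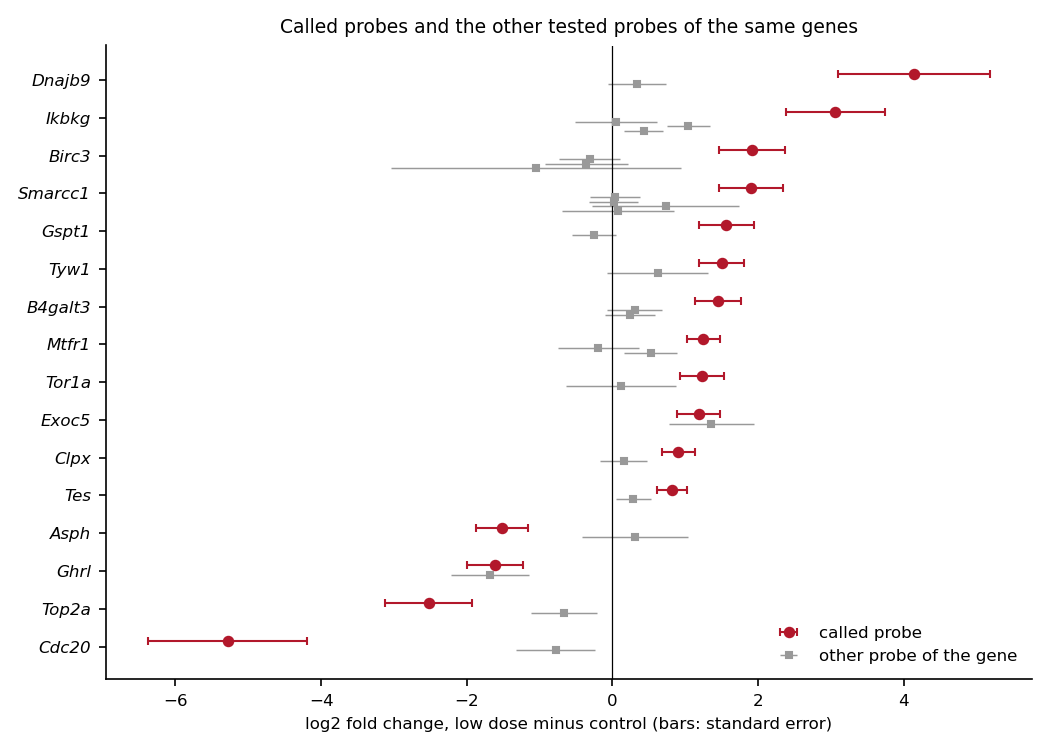
Log2 fold change (low dose minus control) of each called probe (red circles) and of the other tested probes of the same gene (gray squares), with standard errors as bars, for genes with more than 1 tested probe. Probes that had at most 3 counts in every library of a group are left out, since their fitted change is no bound. Ghrl and Exoc5 have other probes close to the called value, and most other gray squares lie near 0.

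Across lists of functionally related genes (1 probe per gene, 18998 genes, of which 1003 were higher and 930 lower at an unadjusted p under 0.05, median log2 fold change 0.084), 2 lists stood farthest from the median of all genes in the negative direction. Alpha-defensins and other Paneth cell products had a median of -1.35 over 23 genes, with 22 of 23 below 0, 13 at an unadjusted p under 0.05, and Mmp7 alone called. The most abundant of them, Defa24, measured 542, 772, 258, and 1192 CPM in controls and 120 to 688 CPM, median 313, in the low dose group (log2 fold change -1.002 ± 0.44, adjusted p = 0.421), and Defa22 had a log2 fold change of -0.96 ± 0.48 (adjusted p = 0.491). Summed, the list ran from 1391 to 6228 CPM in controls and from 535.0 to 2637 CPM in the low dose group. The groups overlapped, and the highest control was mouse 7. Without mouse 7 the median was -0.77 and 3 genes had an unadjusted p under 0.05, and with the share of crypt base markers as a covariate, markers that include Mmp7, Defa22, Defa24, Lyz1, and Ang4, the median was -0.16. In the crypts of the same doses and day the median was -0.02. Defensin genes are near-identical copies, and their probes may share reads.

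Cell cycle and replication genes had a median log2 fold change of -0.64 over 32 genes, with 24 below 0, 4 at an unadjusted p under 0.05, and 0 called through their most abundant probe. Mki67, the proliferation marker, measured 30.9, 15.8, 5.75, and 25.6 CPM in controls and 0 to 15.6 CPM, median 5.48, in the low dose group (log2 fold change -1.65 ± 0.48, adjusted p = 0.178), and Pcna was level at 64.3 ± 18.6 and 65.4 ± 9.79 CPM (log2 fold change 0.03 ± 0.24). The summed level was 966.6 CPM in control mouse 7 and 244.1 to 367.9 in the other controls, against 212.7 to 467.2 CPM in the low dose group. Without mouse 7 the sign turned, to a median of 0.42, with the median of all genes at 0.20. Cytosolic ribosomal proteins had a median of -0.13 over 81 genes (59 below 0, 9 at an unadjusted p under 0.05, 0 called) and 0.32 without mouse 7. Their sum was 18220 CPM in mouse 7 against 7886 to 8763 CPM in the other controls, and 7183 to 16360 CPM in the low dose group, highest in mouse 84. Rplp0 had a log2 fold change of -0.71 ± 0.21 (adjusted p = 0.188). Mouse 7 also held the most crypt base and acinar marker counts of the controls. With the share of crypt base markers as a covariate, the cell cycle median was -0.17 and the ribosomal protein median 0.05, with the median of all genes at 0.20. Those markers include Mki67 and Pcna, so this fit cannot separate the cell cycle list from its covariate. Without mouse 84 the ribosomal protein median was -0.24.

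Further negative medians were those of immediate early genes (-0.40 over 29 genes, 20 below 0, 1 at an unadjusted p under 0.05 in each direction) and of amino acid and peptide transporters (-0.29 over 20 genes, 13 below 0). Slc1a1, a glutamate transporter, had a log2 fold change of -2.04 ± 0.62 (adjusted p = 0.201). Neither list had a called gene, and both medians stayed negative without mouse 7. Of the metal handling genes, Mt1, a metallothionein that binds zinc and copper, measured 37.4, 20.6, 11.9, and 18.0 CPM in controls and 0 to 9.67 CPM, median 5.66, in the low dose group. The groups did not overlap, and the change did not pass the test (log2 fold change -2.13 ± 0.70, unadjusted p = 0.00282, adjusted p = 0.242). The metallothionein, zinc, and copper list as a whole had a median of 0.05 over 21 genes (0.15 without mouse 7). Smooth muscle markers had a median of -0.44 over 9 genes and -0.09 without mouse 7, with Cnn1 at 34.9, 134, 69.4, and 106 CPM in controls and 11.03 to 66.6 CPM in the low dose group (log2 fold change -1.20 ± 0.43, adjusted p = 0.304).

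The hypoxia, NRF2, histone demethylase, and xenobiotic metabolism lists had positive medians without a called gene. Other stress lists did not share this, with medians of -0.04 for heat shock proteins, 0.06 for unfolded protein response genes, and 0.03 for p53 target and DNA damage genes. The median of all genes was 0.08. Hypoxia response genes had a median of 0.33 over 27 genes with 22 above 0 and 4 at an unadjusted p under 0.05, NRF2 targets and oxidative stress genes a median of 0.19 over 28 genes with 19 above 0 and 6 at an unadjusted p under 0.05, and histone demethylases a median of 0.31 over 23 genes with 18 above 0 and 5 at an unadjusted p under 0.05. With DESeq2 size factors, which set the median of all genes to 0, these medians were 0.17, 0.05, and 0.16. With the log10 total count as a covariate they were 0.27, 0.03, and 0.24, with the median of all genes at 0.18, above that of the NRF2 list. Without mouse 7 they were 0.54, 0.34, and 0.55, with the median of all genes at 0.20, and the NRF2 and histone demethylase lists each had 1 called gene that was higher. In the crypts of the same doses and day the medians of the 3 lists were 0.19, 0.17, and 0.08, with all genes there at 0.02. The xenobiotic metabolism list held 14 genes higher and 4 lower at an unadjusted p under 0.05 of 116 tested (median 0.35, and 0.04 when the 35 members with a group at the floor are set to their bound).

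Gclc, the catalytic subunit of the rate-limiting enzyme of glutathione synthesis, measured 8.47, 0, 13.0, and 22.6 CPM in controls and 18.9 to 44.0 CPM, median 29.99, in the low dose group, just outside the threshold (log2 fold change 1.37 ± 0.36, adjusted p = 0.1005). Cat, which encodes catalase, had a log2 fold change of 0.63 ± 0.25 (adjusted p = 0.37). Gsta1 and Gsta2, glutathione S-transferases, averaged 1199 ± 650.2 and 279 ± 196 CPM in controls and 2560 ± 702 and 676 ± 216 CPM in the low dose group (log2 fold change 1.09 ± 0.37 and 1.27 ± 0.39, adjusted p = 0.269 and 0.203). Ftl1, the ferritin light chain, did not overlap between groups, at 286, 253, 245, and 259.7 CPM in controls and 327 to 537 CPM in the low dose group (log2 fold change 0.67 ± 0.21, adjusted p = 0.212). Kdm2a, a histone demethylase, had a log2 fold change of 1.30 ± 0.36 (adjusted p = 0.134). None of these genes passed the test.

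**Figure D4:**
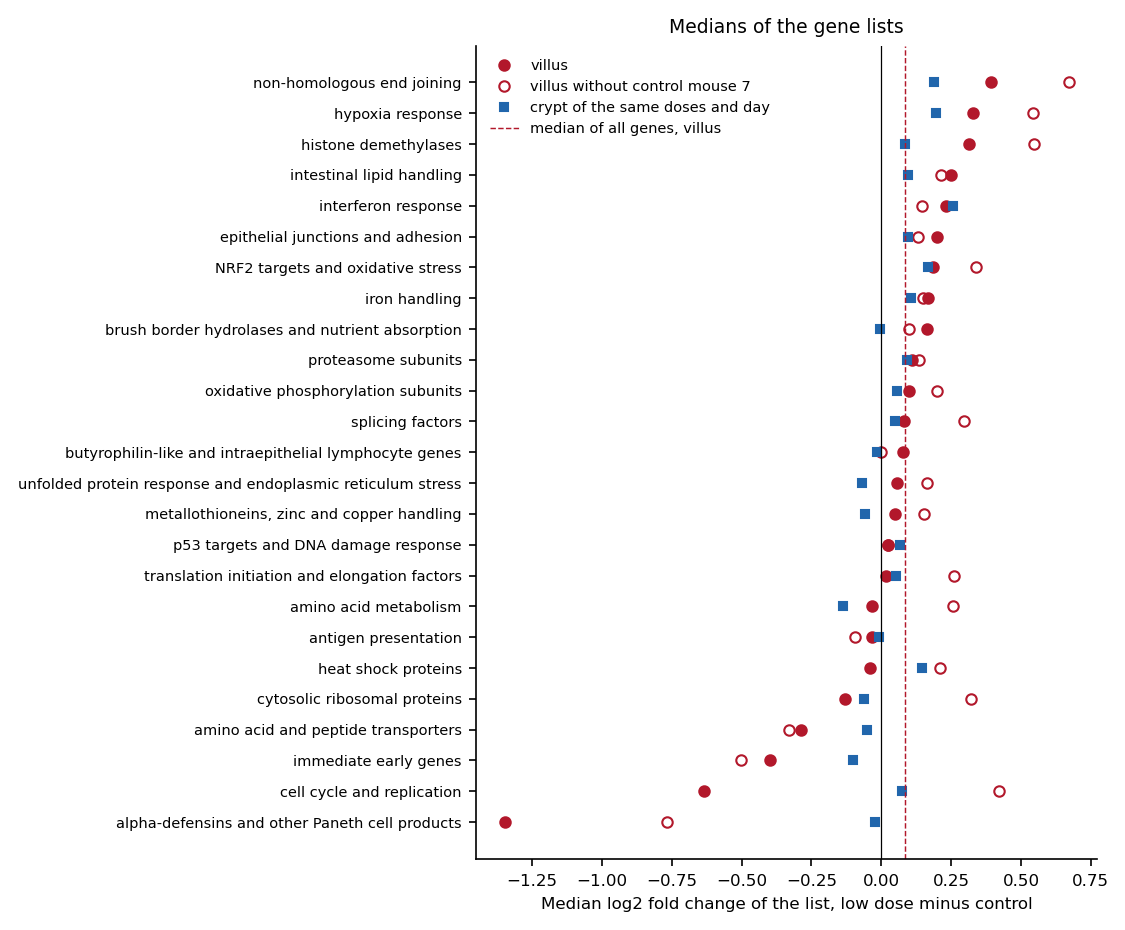
Median log2 fold change (low dose minus control) of 25 gene lists in the villus (filled red circles), in the villus without control mouse 7 (open red circles), and in the crypt at the same doses and day (blue squares), with the villus median of all genes as a dashed line. The 6 lists in which more than 15% of tested members had a group at the floor are left out. Paneth cell products lie lowest at -1.35, and the cell cycle list moves from -0.64 to 0.42 and ribosomal proteins from -0.13 to 0.32 when mouse 7 is left out.

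Immune and secretory lists held few changes. Interferon response genes had a median of 0.23 over 36 genes (0.14 without mouse 7) with 4 at an unadjusted p under 0.05, and Gbp2, a guanylate-binding protein induced by interferon, measured 3.49, 4.75, 12.3, and 8.80 CPM in controls and 18.1 to 60.2 CPM, median 27.6, in the low dose group without overlap (log2 fold change 2.12 ± 0.57, adjusted p = 0.123). Immunoglobulin genes (178 tested) had 18 members higher and 8 lower at an unadjusted p under 0.05 and 1 called, Igkv4-63, and Igkc, the kappa constant segment, had a log2 fold change of 0.57 ± 0.26 (adjusted p = 0.437). T cell receptor genes (87 tested), antigen presentation genes (21), butyrophilin-like and intraepithelial lymphocyte genes (22), and p53 target and DNA damage genes (35) had medians between -0.03 and 0.08 and 0 called. Inducible epithelial defence genes had a median of 0.38 over 27 genes, 0.0 with 13 members at their bound, and 0.92 without mouse 7. Non-homologous end joining genes had a median of 0.39 over 17 genes (0.21 with 1 member at its bound, and 0.67 without mouse 7), with 1 at an unadjusted p under 0.05. Dclre1c, the nuclease Artemis, was that member at 5.09 ± 6.44 CPM in controls and 16.5 ± 6.59 CPM in the low dose group (adjusted p = 0.335).

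Lists of enterocyte and general cell function had medians between -0.04 and 0.25, with Psma1 alone called through the most abundant probe of its gene. Proteasome subunits had a median of 0.11 over 49 genes, with 5 higher and 2 lower at an unadjusted p under 0.05. Oxidative phosphorylation subunits (0.10 over 82 genes), splicing factors (0.08 over 76), translation factors (0.02 over 65), heat shock proteins (-0.04 over 20), unfolded protein response genes (0.06 over 25), and brush border and absorption genes (0.17 over 26) had 0 called through their most abundant probe. Iron handling genes (0.17 over 15), junction and adhesion genes (0.20 over 29), sialic acid metabolism genes (0.05 over 33), and amino acid metabolism genes (-0.03 over 39) likewise had 0 called. Intestinal lipid handling genes had a median of 0.25 over 30 genes. Without mouse 7 the medians of translation factors, heat shock proteins, amino acid metabolism, splicing factors, and sialic acid metabolism genes were 0.26, 0.21, 0.26, 0.30, and 0.23, and those of oxidative phosphorylation and unfolded protein response genes 0.20 and 0.16, where the median of all genes was 0.20, and the splicing and sialic acid lists each had 1 called gene. Junction and brush border medians were 0.13 and 0.10 without it. Fabp2, the intestinal fatty acid binding protein, averaged 24620 ± 3681 CPM in controls and 35950 ± 10390 CPM in the low dose group (log2 fold change 0.55 ± 0.29, adjusted p = 0.522). Hnrnpul2, a ribonucleoprotein, had a log2 fold change of 0.76 ± 0.20 (adjusted p = 0.118) with 509.7 to 991 CPM in the low dose group against 328 to 642 CPM in controls. Olfactory receptors (746 tested) had 61 members lower and 0 higher at an unadjusted p under 0.05, and 633 of the 746 had at most 3 counts in every library of a group. Receptor genes are a large family of similar copies.

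**Figure D5:**
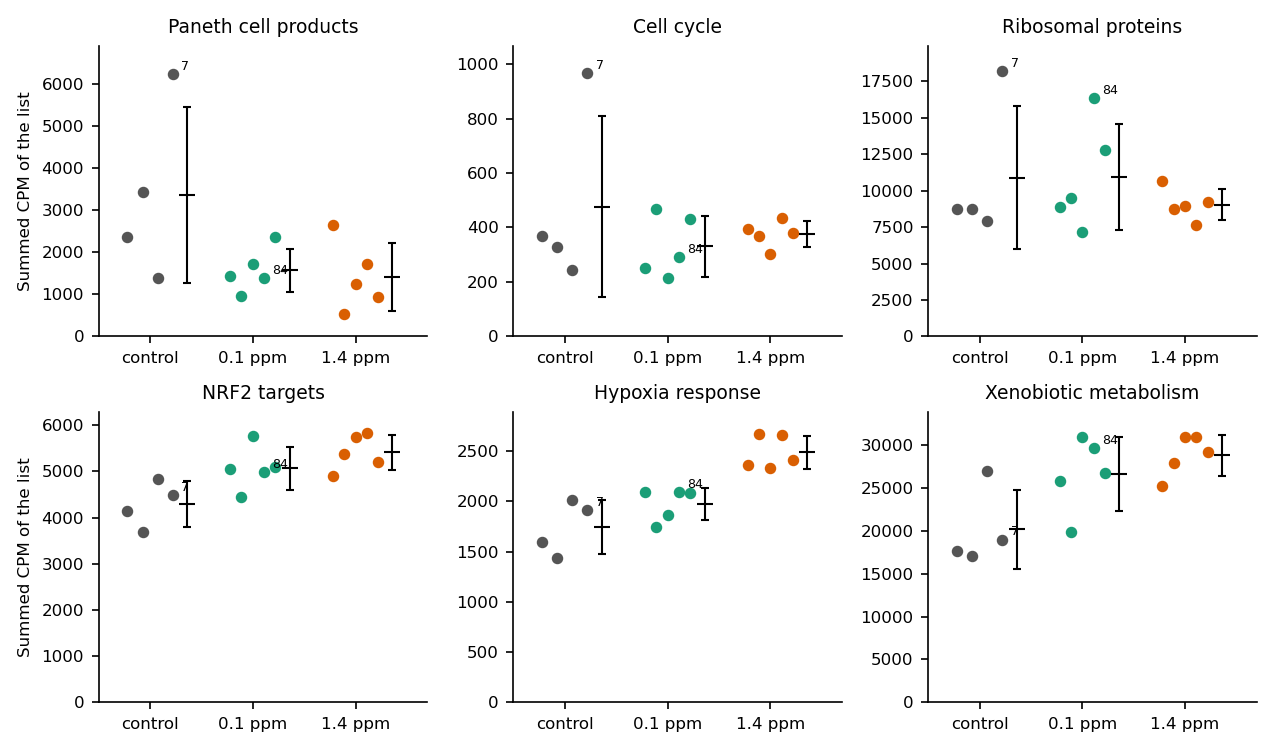
Summed CPM of 6 gene lists in each villus library by group, each panel with its own axis from 0. Points are libraries, the black mark with bars is the mean ± SD, and mice 7 and 84 are labelled. Control mouse 7 is the highest control for Paneth cell products, cell cycle genes, and ribosomal proteins, and all 5 libraries at 1.4 ppm (2334 to 2670 CPM) lie above every library at 0.1 ppm and every control for the hypoxia response.

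Of the genes that the study names for low concentrations, Duox2 for the villus and most of the others for the crypt, none was called in these villi, and most were at 0 counts in many libraries, apart from Hif1a and Ctnnd1. Duox2, a dual oxidase of the epithelial surface, had 0 counts in all 4 controls and in 8 of 10 low dose libraries, with 3.68 CPM in mouse 84 and 59.7 CPM in mouse 85, both at 0.1 ppm. Slc10a2, the ileal bile acid transporter, had 0 counts in all controls and 0 to 15.1 CPM, median 1.94, in the low dose group. Muc6, a gland mucin, was at 62.8 CPM in control mouse 5 and 0 in the other controls, and Reg2 and Ppy, known from pancreas, were highest in mouse 7 (20.7 CPM) and mouse 84 (48.2 CPM), the libraries with the most acinar counts. Saa1 and Slc5a8 did not exceed 3.11 CPM in any of the 14 libraries, Egr3 ran from 0 to 11.96 CPM in controls and from 0 to 6.56 CPM in the low dose group, and Slc34a2, a phosphate transporter, averaged 2.04 ± 3.75 and 6.13 ± 5.48 CPM (adjusted p = 0.737). Ctnnd1, the catenin p120, averaged 2112 ± 254 CPM in controls and 2327 ± 368 CPM in the low dose group (log2 fold change 0.14 ± 0.20, adjusted p = 0.853).

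Hif1a, the hypoxia-inducible transcription factor, differed between the pooled concentrations in value. It measured 134, 111, 108, and 94.9 CPM in controls, 84.3 to 157 CPM at 0.1 ppm, and 141 to 324 CPM at 1.4 ppm. The concentrations overlapped, and 1.4 ppm exceeded 0.1 ppm by 0.77 ± 0.27 on the log2 scale (unadjusted p = 0.00537, adjusted p = 0.438). Ldha, the lactate dehydrogenase subunit of glycolysis and a known hypoxia target, ran from 683 to 811 CPM at 0.1 ppm and from 922 to 1110.0 CPM at 1.4 ppm without overlap, with controls at 654, 543, 772, and 798 CPM (1.4 against 0.1 ppm, log2 difference 0.45 ± 0.26, unadjusted p = 0.0835, adjusted p = 0.75). The summed hypoxia list was 1741 to 2096 CPM at 0.1 ppm and 2334 to 2670 CPM at 1.4 ppm, above every control at 1.4 ppm only. A sum is weighted toward abundant genes. The median log2 difference of the list between the concentrations was 0.19, with that of all genes at 0, and none of its genes was called. Acinar counts without Reg1 were also lower in every 1.4 ppm library than in any 0.1 ppm library, and overlapped with Reg1 included (2868 to 8082 CPM at 1.4 ppm and 6249 to 251100 CPM at 0.1 ppm), and their part here was not tested.

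Between 1.4 and 0.1 ppm, 65 probes were called (0.247%), 14 higher and 51 lower at 1.4 ppm. The calls were mostly lower and included 10 of 21 pancreatic acinar markers, among them Pnliprp2, a pancreatic lipase, at 283 ± 450 CPM at 0.1 ppm and 2.49 ± 3.50 CPM at 1.4 ppm (SD, n = 5 and 5; adjusted p = 0.0108). Without mouse 84 only 4 probes were called, and 4 with the acinar share as a covariate. Reg3g, an antibacterial lectin of the epithelium, passed in both of these fits and in the full one, at 172.9 ± 288.8 CPM at 0.1 ppm and 3.02 ± 3.09 CPM at 1.4 ppm (log2 difference -5.72 ± 1.12, adjusted p = 0.0108, and 0.0101 without mouse 84), with controls at 0.997, 7.91, 18.4, and 14.2 CPM. Its 0.1 ppm libraries measured 52.5, 67.4, 43.2, 13.1, and 688 CPM, so that mouse 85 was far above the rest. Dmbt1, an epithelial and pancreatic mucosal protein, was lower at 1.4 ppm through both of its probes (log2 difference -2.61 ± 0.45 and -2.08 ± 0.42, adjusted p = 0.00101 and 0.0131), and neither passed without mouse 84 (log2 difference -1.64 and -1.44, adjusted p = 0.218 and 0.25). Mff, a mitochondrial fission factor, rose at 1.4 ppm from 17.0 ± 11.1 to 51.9 ± 15.1 CPM (log2 difference 1.61, adjusted p = 0.0452). Without mouse 84 the Mff difference was 1.49 (adjusted p = 0.25), and with the acinar share as a covariate 1.72 (adjusted p = 0.1075). Of the 39 probes called against control, 0 were called between the concentrations, with a smallest adjusted p of 0.232 and 2 at an unadjusted p under 0.05. Since 0.247% of all probes were called, 0 of 39 cannot show that the concentrations agree.

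In the crypts of mice at the same doses and day (10 libraries against 5 controls), 0 probes were called and 979 had an unadjusted p under 0.05 (edgeR quasi-likelihood test). Of the 39 probes called in the villus, 29 changed with the same sign in the crypt, where the median log2 fold change was 0.18 for those that rose in the villus and -0.14 for those that fell. An unadjusted p under 0.05 in the crypt was reached by 3 of the 39 with the same sign and 1 with the opposite sign. The share of all tested probes with the same sign in both compartments was not counted, so the 29 cannot be judged against it. Every villus library here has a crypt library of the same animal. Mtfr1 averaged 130.2 CPM in control crypts and 145 CPM in low dose crypts (log2 fold change 0.15), beside 61.7 and 147 CPM in the villus. The difference between the villus and the crypt effect passed the test for 0 of 26365 probes (0.0%), with 1634 at an unadjusted p under 0.05, so that no change was shown to differ between the compartments. The legacy fit called 7 probes and DESeq2 95. The villus libraries that chose the 39 probes enter this difference, and the smallest adjusted p among them was 0.311.

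Compared with the low dose group, 5 ppm villi of the same day (5 libraries) had 5359 called probes (20.3%), 3942 of them higher. The 5 ppm libraries also had more probes detected (17172 to 21527, against 13962 to 17055), and with the number detected at equal depth as a covariate 176 probes were called. Of the 39 low dose probes, 9 were called in this contrast, a share near the 20.3% of all probes. Of those, 8 were higher at 5 ppm, where 73.56% of all calls were higher. Among them, Tes was 0.61 higher (adjusted p = 0.0145) and Abhd17b 0.87 higher (adjusted p = 0.000691) on the log2 scale, and Clpx 0.54 higher (adjusted p = 0.0443), each in the direction of its low dose change. Mmp7 was 1.64 higher (adjusted p = 0.0111) and Hist1h2af 2.40 higher (adjusted p = 0.00377), opposite to their low dose change, and Dnajb9 changed by -2.22 (adjusted p = 0.0158). Mtfr1 averaged 180.5 CPM at 5 ppm, a log2 difference of 0.30 from the low dose group (adjusted p = 0.289). This contrast shares the low dose libraries with the comparison that chose the probes.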

How the data were processed

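RNA from villi and crypts scraped from fixed, paraffin-embedded sections of mouse duodenum was measured with TempO-Seq (30146 probes, 21450 genes). The authors extracted the number of sequenced reads per probe, and the deposited values are these raw counts without normalization. The submitters' notes name bcl2fastq 2.17.1.14 and Bowtie, and no source used here gives the genome build that the probes were mapped to. Gene positions are those of GENCODE M21 (GRCm38).

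Counts of all 137 libraries were fitted with edgeR 4.0.16 (R 4.3.3) in 24 groups of compartment, day, and dose, with 0.1 and 1.4 ppm pooled, or 28 with each dose apart. TMM scaling, filterByExpr (minimum count 10), and the quasi-likelihood test (glmQLFit, legacy = FALSE) were used without covariates, and p values were adjusted with the Benjamini-Hochberg procedure over all probes of a contrast at a threshold of 0.1. The study used DESeq2 for each dose, and DESeq2 1.42.0 was an alternative here. CPM are scaled to effective library size. Depth was compared with exact permutation tests. Tables and figures were made in Python 3.11.15 with numpy 2.4.6, pandas 2.3.3, and matplotlib 3.10.9, and the fit was tested on simulated data.

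The members, lists, and tests were chosen with earlier results of these data known. Named genes were, since more than 30 genes were called, up to 12 called probes in each direction whose groups did not overlap, then the 2 most abundant members and the member with the smallest p of each list, the genes named by the study for low doses, and up to 5 called probes in each direction of the other contrasts. A list used the most abundant probe of each gene, and 47 lists (31 functional and 16 of cell type markers) were described. Tradd and Ighmbp2, caught by patterns for receptor and immunoglobulin names, were dropped from those lists. The values of some genes are not reported here.

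Mouse numbers pair the crypt and villus library of an animal. Residuals of 14 same-mouse pairs correlated at a median r of 0.145 (-0.0198 to 0.408) and those of 106 pairs of different mice of the same group at -0.0303 (11391 probes). The mouse was therefore tried as a block for the contrast between compartments. The comparison of low dose and control villi holds each mouse once and cannot be blocked.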

Additional observations from a re-analysis of the deposited data

Results flagged for a closer look

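Single libraries that stood away from their group were searched for by the gap to the nearest library divided by the range of the group, in 45 groups of values, where chance marks about 1 in 20. Mtfr1 was set apart in control mouse 3, at 42.87 CPM with the next control at 67.05 CPM. Without that mouse the Mtfr1 call remained. Ap3m2 was set apart in 0.1 ppm mouse 85 (3.926 CPM) and in 1.4 ppm mouse 162 (3.109 CPM), with 0 counts in the other low dose libraries of each group. The summed acinar markers, Reg1 included, were set apart in control mouse 7 (76040 CPM, next 11490 CPM) and in 0.1 ppm mouse 84 (251100 CPM, next 48960 CPM). Counts of called probes without these mice are given with the processing alternatives.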

How the results depend on the processing

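The threshold count of 39 probes for low dose against control moved by over 1.5 times in many fits, and the cause was not tested. It was 1018 (320 higher) with the legacy quasi-likelihood fit, 547 (379 higher) with DESeq2, 25 with no filter beyond 1 count, 95 with a mean count of at least 10, 3 in the libraries of the contrast alone, 62 with the log10 total count as a covariate, 73 after thinning, 73 with probes detected as a covariate, and 9 for each of 0.1 and 1.4 ppm alone. Chosen after seeing the data, the acinar share as a covariate gave 17, and leaving out control mouse 7 and 0.1 ppm mouse 84 gave 68. Leaving out 1 library gave 15 to 82, moving by over 1.5 times without control mouse 3 (21), 5 (21), or 7 (82), mouse 82 (15), 84 (17), or 165 (22). DESeq2 size factors gave 57, 13 of them higher, the total count covariate 21 of 62 higher, and the crypt share 39 of 53 higher. The legacy fit shared 38 and DESeq2 36 of the 39 probes.

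For 1.4 against 0.1 ppm (65) the legacy fit gave 37, DESeq2 282, the fit of villi of the same day 6, the acinar covariate 4, and fits without 1 library 4 to 95 (4 without mouse 84, 31, 22, 15, and 13 without mice 161, 162, 163, and 165). For villus minus crypt (0) the legacy fit gave 7, DESeq2 95, the fit of 1 day 6, and fits without 1 library 0 to 2 (1 without control mouse 5 or mouse 83, 2 without control mouse 6 or 7). With the mouse as a replicate block it gave 0, and the block changed no call. For 5 ppm against low dose (5359) the contrast alone gave 2823, probes detected as a covariate 176, the crypt share 2775, and fits without 1 library 2553 to 6701 (2875 and 2553 without mice 245 and 246). The difference in probes detected (1497) was 1119 to 2034 without 1 library and passed an exact permutation p under 0.05 without control mouse 7 or mouse 81, 82, 83, or 164, and as a ratio of medians (1.143, exact permutation p = 0.02997). The total count kept its direction and threshold. The 10 genes without overlap kept their direction in every fit of single probes that could give a value. In fits without 1 library or of 1 dose this follows from their choice by lack of overlap. Mtfr1 kept its call in all 30 fits of single probes, Tes in 9, and Tut1 in 13. The fit with probes summed per gene was not among them.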

Other observations

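Some cell type markers moved in value beside the gene groups of the report. Brunner gland markers, of which 4 were tested, were highest in control mouse 5 (80.18 CPM summed, against at most 7.954 CPM in any low dose library). Erythroid markers summed to 0 in 3 controls and 8.415 CPM in mouse 7, and to a median of 10.61 CPM in the low dose group, with Hba-a2 at most 34.0 CPM. Goblet cell markers summed to 4451 to 5056 CPM in controls and 4098 to 11030 CPM in the low dose group, highest in mouse 84. Tuft cell, fibroblast, endothelial, macrophage, T cell, plasma cell, and enteric glia markers had 0 called members, with medians of -0.52, 0.14, 0.37, 0.38, 0.23, 0.61, and -0.42 on the log2 scale. Without mouse 7 the fibroblast, endothelial, and enteric glia medians were 0.32, 0.23, and -0.05. Acinar markers had a median of 0.82, which was -0.76 without mouse 84 and 3.97 without mouse 7, with 0 called. The eukaryotic initiation factor Eif4g2 had a log2 fold change of 0.66 ± 0.27, and Cldn7, a tight junction claudin, did not overlap between groups at 181 to 239 CPM in controls and 247 to 412 CPM in the low dose group (log2 fold change 0.46 ± 0.20, adjusted p = 0.413).

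Depth limits these values. Control libraries held 1667014 to 2678299 counts, and 1 count in them is a larger CPM than in the deeper exposed libraries. A count of 0 in a library allows a level of up to 3 counts there, for counting error alone.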
